A study of Mus musculus with 15 samples.

Results

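The 10 genes described are those of the integrated stress response and the unfolded protein response (Atf4, Ddit3, Asns, Trib3, Chac1, Psat1, Phgdh, Hspa5, Xbp1 and Herpud1), measured in 15 RNA-seq samples of mouse embryonic fibroblasts. The genes were taken by symbol from the table of transcription units, where they occupied 18 of 65522 units. The cells came from female C57BL/6 mice that were either WT (wild-type CIZ1 +/+) or CIZ1 null (CIZ1 -/-). The null allele is a gene trap after the first exon of Ciz1, and CIZ1 is a nuclear matrix protein found at the inactive X chromosome. Primary cells were early-passage cultures, each from a single mid-gestation embryo, and adapted cells were long-term lines grown from the colonies that emerged when the same cultures slowed.

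Samples carry the numbers of their labels. S01, S02 and S03 were WT primary and S07, S08 and S09 were WT adapted. S04, S05 and S06 were CIZ1 null primary and S10, S11 and S12 were CIZ1 null adapted. S06 and S13 were CIZ1 null primary cells with an untreated inducible CIZ1 transgene, and S14 and S15 carried that transgene and received doxycycline at 5 to 10 μg/ml, which switches on GFP-CIZ1. S06 therefore stood both in the CIZ1 null primary group and in the untreated group of the doxycycline comparison. The study's list of lines gives the transgene to the adapted line S11 as well, whereas its label says only CIZ1 -/-. The study asked how loss of CIZ1 and adaptation to culture change gene expression.

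In the integrated stress response, kinases that sense amino acid shortage, misfolded protein, haem shortage or double-stranded RNA phosphorylate the translation factor eIF2. General translation slows while the transcription factor ATF4 is translated more, and ATF4 switches on genes for amino acid synthesis and import and, with persistent stress, the factor CHOP, encoded by Ddit3. The unfolded protein response is started by the endoplasmic reticulum (ER) sensors PERK, IRE1 and ATF6; PERK feeds into eIF2, IRE1 splices the Xbp1 mRNA, and ATF6 and XBP1 switch on chaperones such as BiP, encoded by Hspa5. ATF4 protein, eIF2 phosphorylation and Xbp1 splicing were not measured here, so all values below are RNA levels.

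The promoter sequences are shown because the genes differ in which of these factors is known to act on them. RefSeq promoters (GRCm38.p6, 250 bases before to 50 after the start) were found for all 10 genes, and 3 motifs were searched on both strands. The core of the C/EBP-ATF response element, TGATGNAA, was in 4 of the 10 genes and in 3.97% of 32851 promoters. The ER stress response element, CCAAT followed after 9 bases by CCACG, was in 1 gene and in 0.119% of promoters. Its second form, ATTGG followed after 1 base by CCACG, was in 1 gene and in 0.0365% of promoters. Capitals mark the matches, and every stretch reads in the direction of the gene:
Asns, chr6:7693210-7693273, minus strand: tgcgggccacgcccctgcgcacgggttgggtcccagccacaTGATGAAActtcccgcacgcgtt
Chac1, chr2:119351022-119351085, plus strand: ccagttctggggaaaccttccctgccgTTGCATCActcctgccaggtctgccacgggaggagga
Trib3, chr2:152344028-152344055, minus strand: agctcaggtTTACATCAgccgggcgggg
Herpud1, chr8:94386307-94386398, plus strand: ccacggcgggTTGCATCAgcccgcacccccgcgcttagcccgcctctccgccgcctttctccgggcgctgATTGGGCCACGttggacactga
Hspa5, chr2:34772000-34772063, plus strand: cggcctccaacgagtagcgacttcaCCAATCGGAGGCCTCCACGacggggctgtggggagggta

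The TGATGNAA match began 23 bases before the annotated start in Asns, on the strand of the gene. In Chac1, Herpud1 and Trib3 the motif lay on the opposite strand. It began 193 bases before the start in Chac1, 112 before it in Herpud1 and 14 after it in Trib3. Herpud1 was the gene with both kinds of element, its match to the second form of the ER stress element beginning 52 bases before the start, and the element in Hspa5 began 65 bases before the start. The windows of the other 5 genes (Atf4, Ddit3, Psat1, Phgdh and Xbp1) held none of these letters. A match describes the sequence and does not show that a factor binds there.

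Levels are FPKM, that is fragments scaled to the length of the transcript and the depth of the library. This puts genes and samples on a common scale, but comparison between samples still depended on the scaling. Quantile normalization moved several differences, as given below. Ddit3 and Hspa5 each had 1 unit, and the other 8 genes each had 2 units at identical coordinates. The unit with the higher mean stood for the gene. The lower unit held between 2.14% and 26.7% of the FPKM of its pair, and the pairs ran together over the 15 samples with Pearson r from 0.81 to 0.99. The strand of a unit is not in the table, the library kit is not described as marking strand, and reads may have been split within a pair.

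The intervals of some units also hold other genes, so neighbouring reads may be shared. Atf4 lay in chr15:80170936-80257824 (GRCm38) with units of Mgat3 and Mief1. Ddit3 lay in chr10:127289696-127311786 with the unit of Gm4189 and Mars. Hspa5 lay in chr2:34771970-34800178 with Rabepk, Psat1 in chr19:15904478-15947337 with Gm3329, and Herpud1 in chr8:94377921-94396541 with Gm15889 and Gm15890. No other symbol shared the interval of Asns (chr6:7674790-7693254), Trib3 (chr2:152337316-152344053), Chac1 (chr2:119350803-119355005), Phgdh (chr3:98313170-98339990) or Xbp1 (chr11:5520659-5528150).

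Ciz1 itself followed the labels, at 18.7 to 25.0 FPKM in the WT samples, 0.055 to 0.72 in the untreated null samples, and 296 and 191 with doxycycline. Relative depth, read from the steps of the low values, ran from 0.48 of that of S01 in S13 to 1.63 in S02. All 10 fibroblast markers were found, and their summed level was 10016 to 10951 in the primary WT and null samples but 3103 to 6508 in the adapted ones, with Lum listed at 0 in S07, S09 and S11 and Thy1 at 0 in S08. The markers did not move as one. Col1a1 was at 2858 to 3186 in those primary samples and at 139 to 1231 in the adapted ones, whereas Dcn was at 24.1 to 68.5 in primary cells but at 905, 799.997 and 993 in S09, S10 and S12, and Pdgfra at 6.59 to 19.4 in primary cells but at 35.1, 63.2 and 28.0 in S07, S10 and S12. All 6 macrophage markers were found, and their sum was 8.73 to 96.8 in those primary samples and 2.15 to 15.1 in the adapted ones. Epithelial markers summed to at most 12.7. The adapted samples thus differed from primary cells in fibroblast markers as well as in the genes below, and the part of this in the results was not tested. In bulk samples, fewer cells of a type and less RNA per cell cannot be told apart.

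Atf4, the transcription factor at the centre of the integrated stress response, was at 178, 165 and 155 FPKM in WT primary cells and at 180.5, 198 and 239 in CIZ1 null primary cells. After adaptation it was at 118, 213 and 188 in S07, S08 and S09, and at 237, 421 and 289 in S10, S11 and S12. All 3 null values lay above all 3 WT values in primary cells, and again in adapted cells. In primary cells the gap was narrow, with S04 at 180.5 against S01 at 178. The lower Atf4 unit overlapped there, with 44.4 in S04 and 46.1 in S01. S13 was at 189, and the doxycycline-treated samples were both at 155.

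Ddit3, which encodes CHOP, a factor linked to cell death in prolonged stress, was at 48.8, 53.9 and 38.6 FPKM in WT primary cells and at 44.0, 56.4 and 95.8 in null primary cells. Adapted cells spread widely, with 23.6, 64.7 and 75.8 in WT and 50.1, 149 and 108 in CIZ1 null. The untreated inducible sample S13 reached 120.2, and S14 and S15 were at 47.3 and 48.4. The high samples were S11, S13, S12 and S06, all of them CIZ1 null, and the lowest was S07. Of these, S06 and S11 came from the same embryo. S06 and S13 carried the inducible transgene by their labels, and S11 by the study's list.

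Trib3, a pseudokinase that feeds back on ATF4 and CHOP, had the widest range of the 10 genes, with 27.2 times as much in S11 as in S07. WT primary cells had 8.11, 18.5 and 7.81 FPKM and null primary cells 16.2, 21.2 and 39.3. WT adapted cells had 2.43, 7.73 and 10.6, and null adapted cells 9.52, 66.0 and 26.7. Both comparisons of genotype overlapped, in primary cells through S02 and in adapted cells through S10. S13 had 26.1, and S14 and S15 had 10.8 and 12.02.

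Chac1, which encodes an enzyme that breaks down glutathione, was second in range at 14.5 times. Its values were 7.61, 15.8 and 9.05 FPKM in WT primary cells and 12.3, 26.6 and 21.6 in null primary cells. In adapted cells they were 4.28, 13.1 and 13.2 in WT against 16.3, 61.9 and 30.4 in CIZ1 null, without overlap. S13 had 13.6, and the treated samples had 14.7 and 8.04.

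**Figure D1:**
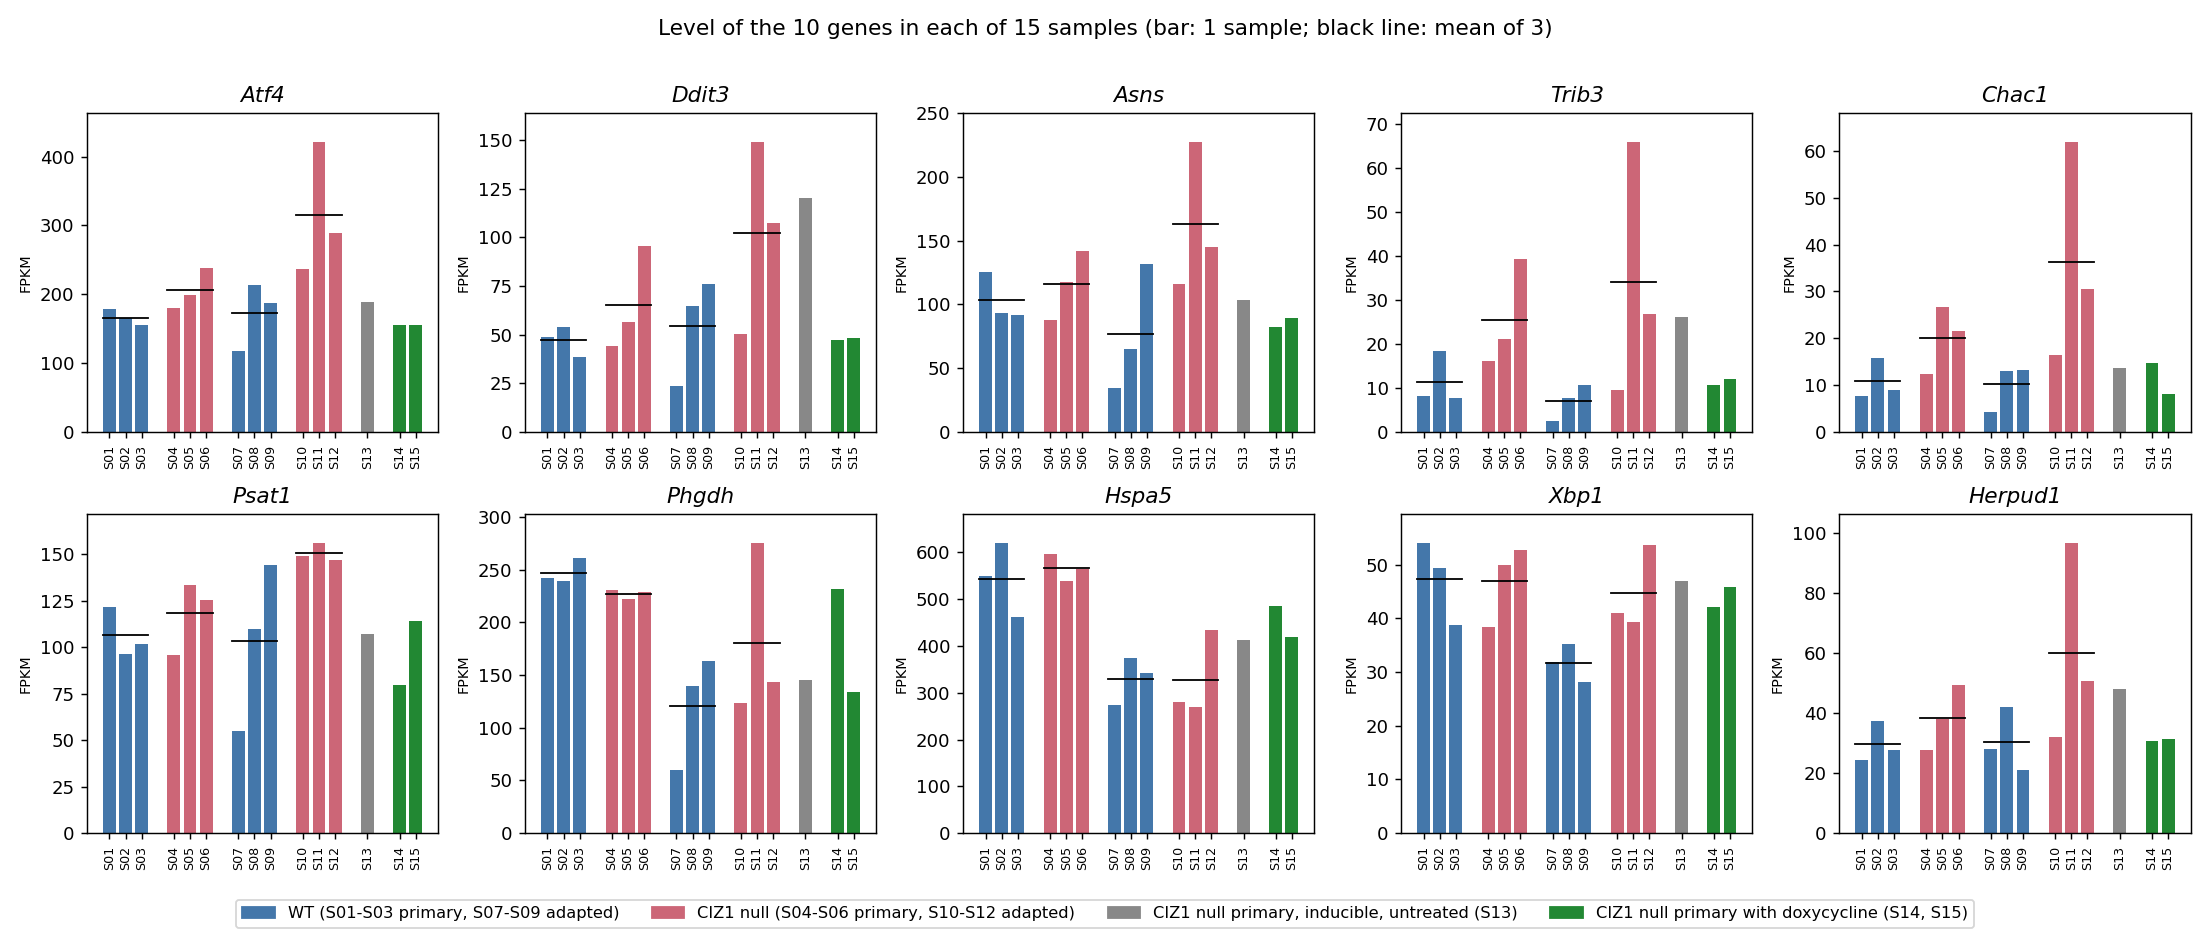
FPKM (vertical axis, from 0, with its own scale for each gene) of the 10 genes in each sample (horizontal axis), by group and colour, with a black line at the mean of each group of 3. S11 has the highest bar for 8 genes and S07 the lowest for 7, while Hspa5 is lower in all 6 adapted samples than in the 6 primary samples S01 to S06.

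Asns makes asparagine, and Psat1 and Phgdh encode enzymes of serine synthesis; all are known ATF4 targets. Asns was at 126, 93.0 and 91.4 FPKM in WT primary cells, 87.6, 118 and 142 in null primary cells, 34.4, 64.9 and 132 in WT adapted cells, and 116, 227 and 145 in null adapted cells. Psat1 was at 122, 96.6 and 101 in WT primary cells, 95.8, 133 and 126 in null primary cells, 55.1, 110.0 and 144 in WT adapted cells, and 149, 156 and 147 in null adapted cells. The null adapted values of Psat1 had an SD of 4.70, whereas the WT adapted values had an SD of 45.0. In both genes S07 was the lowest of all samples and S11 the highest.

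Phgdh had a different order. It was at 242, 239 and 261 FPKM in WT primary cells and at 230.3, 222 and 229 in null primary cells. WT adapted cells had 59.8, 139 and 164, all below primary cells, and null adapted cells had 123, 275 and 144, where S11 alone was above the primary samples. Among the transgenic samples S13 and S15 had 146 and 134, and S14 had 232. Without doxycycline or adaptation, S13 was thus at a level like that of most adapted samples. The lower Phgdh unit did not share the high value of S11. There S11 was at 7.98, below S04, S05 and S06, of which S04 was the lowest at 12.6.

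Hspa5, encoding the main ER chaperone BiP, was the most abundant of the 10 genes. It was at 549, 619 and 462 FPKM in WT primary cells and 596, 539 and 564 in null primary cells. Adapted cells had 275, 374 and 342 in WT and 280.3, 270.2 and 433 in CIZ1 null. The adapted values lay below those of the primary samples S01 to S06 in both genotypes, and S11, the highest sample for 8 genes, was the lowest for Hspa5. S13, S14 and S15 had 413, 485 and 418, so the primary samples S13 and S15 lay below the adapted S12.

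Xbp1, whose spliced mRNA encodes a transcription factor of the unfolded protein response, varied least, with 1.92 times between the highest and lowest samples. It was at 54.0, 49.3 and 38.8 FPKM in WT primary cells, 38.4, 49.9 and 52.6 in null primary cells, 31.8, 35.3 and 28.1 in WT adapted cells, and 41.0, 39.3 and 53.7 in null adapted cells. The WT adapted values were below those of every other group. The transgenic samples S13, S14 and S15 had 47.0, 42.0 and 45.8.

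Herpud1 encodes an ER membrane protein that takes part in degrading misfolded proteins. It was at 24.4, 37.4 and 27.8 FPKM in WT primary cells, 27.7, 38.0 and 49.3 in null primary cells, 28.0, 42.2 and 20.9 in WT adapted cells, and 32.2, 96.6 and 50.9 in null adapted cells. S13 had 48.0, and S14 and S15 had 30.7 and 31.5. Although an unfolded protein response gene, it had the same top sample as the ATF4 targets.

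Across the 15 samples S11 was the highest for 8 of the 10 genes and the lowest for 1, Hspa5. S07 was the lowest for 7 genes and among the lowest 2 for 9. S12 was among the highest 2 for 5 genes. Within the CIZ1 null adapted group, S10 was the lowest for Trib3, Chac1 and Ddit3. S11 had 6.93 times as much Trib3, 3.79 times as much Chac1 and 2.98 times as much Ddit3 as S10. S12 had 2.81, 1.86 and 2.15 times as much of them as S10. For Atf4, Asns and Phgdh it was S11 that stood apart, at 1.78, 1.96 and 2.23 times S10, where S12 was at 1.22, 1.25 and 1.17.

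**Figure D2:**
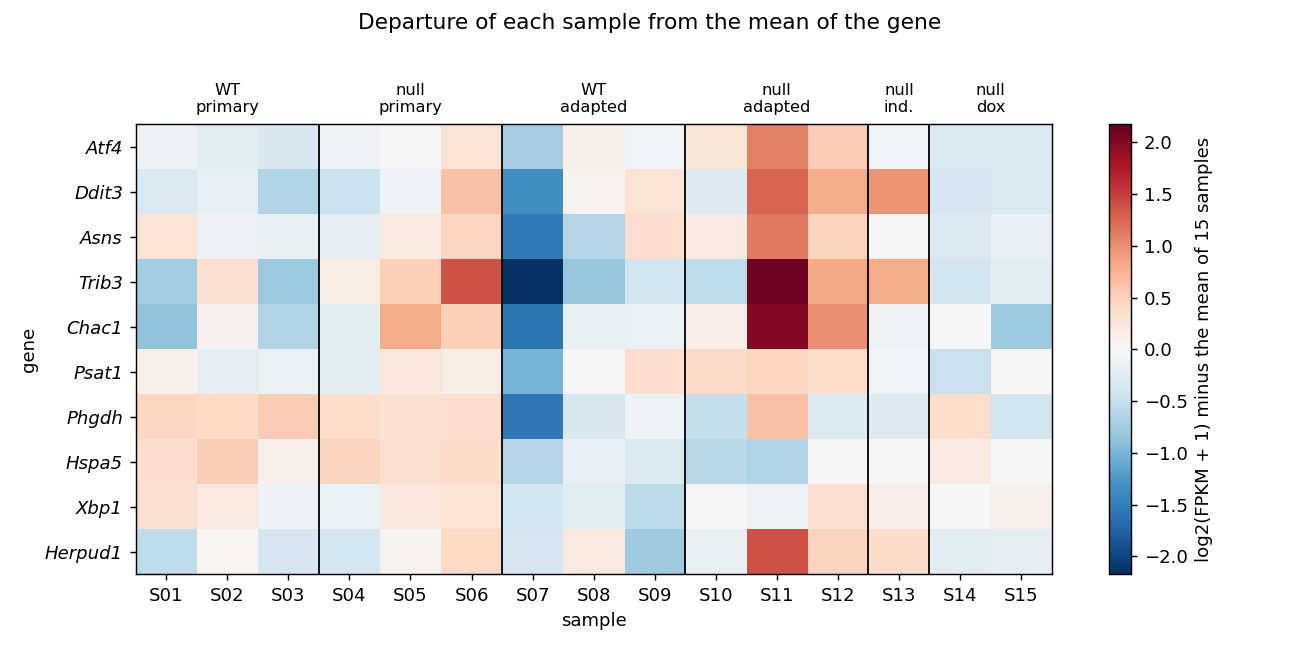
Departure of each sample (columns, by group) from the mean of the gene over 15 samples (rows), as log2(FPKM + 1), with red above and blue below the mean; "ind." is the untreated inducible sample and "dox" the treated ones. The column of S11 is red except for Hspa5 and Xbp1 and that of S07 is blue in all 10 rows, with Trib3 at the extremes of both.

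Differences were tested with limma on log2(FPKM + 1), where 1 is added so that low values do not dominate, and p-values were adjusted over every unit whose mean reached 1 FPKM. An adjusted p under 0.05 counted as a call. All 10 genes passed this filter in every comparison. Samples within a group are separate embryos or the lines made from them, so the p-values measure the spread between embryos and lines. Primary and adapted samples share embryos, however, and so do the doxycycline samples. By embryo the pairs were S01 with S09, S02 with S07, S03 with S08, S04 with S12, S05 with S10 and S06 with S11. The main fits left this pairing out, and fits with the embryo as a block are given for the 2 adaptation comparisons.

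The first comparison asked what adaptation does to WT cells. None of the 10 genes was called by limma, where 9.55% of 19919 units were. At an unadjusted p under 0.05 there were 3 of 10 genes, all lower in adapted cells, where 17.8% of units reached it in that direction. Phgdh had the largest difference of these, at -1.15 ± 0.37 on the log2 scale (± SE; 121 ± 54.4 FPKM in adapted against 247 ± 11.7 in primary cells, ± SD, n = 3 each). Its adjusted p was 0.0978. Its lower unit, at 3.23 ± 1.27 against 13.2 ± 1.65 FPKM, was called with a log2 change of -1.78 and an adjusted p of 0.0173.

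Hspa5 was at 330.5 ± 50.9 FPKM in WT adapted against 543 ± 78.8 in WT primary cells (± SD, n = 3 each). The log2 change was -0.72 ± 0.19 with an adjusted p of 0.0605. Xbp1 was at 31.7 ± 3.58 against 47.4 ± 7.79, a log2 change of -0.56 ± 0.19 with an adjusted p of 0.108. In Phgdh, Hspa5 and Xbp1 the adapted values all lay below the primary values, as they did for 21.4% of units, and each of the 3 embryos had a lower value after adaptation. The Hspa5 difference was -0.44 after quantile normalization.

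The ATF4-linked genes had WT adaptation changes near 0 or with wide intervals. Atf4 had a log2 change of 0.017 with a 95% interval from -0.57 to 0.60, and Ddit3 had 0.067 with an interval from -0.98 to 1.12. Asns, at -0.61, and Trib3, at -0.72, had adjusted p of 0.415 and 0.395. These values turned on S07: without it Trib3 stood at -0.20 and Asns at -0.14, Ddit3 at 0.58 and Atf4 at 0.27, and Phgdh was called, at -0.71 with an adjusted p of 0.0459.

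The second comparison asked the same of CIZ1 null cells. Again 0 of 10 genes were called by limma, where 4.86% of 20044 units were, and 1 of 10, Hspa5, had an unadjusted p under 0.05, in the lower direction, where 16.8% of units did. Hspa5 was at 328 ± 91.3 FPKM in adapted against 566 ± 28.7 in primary cells (± SD, n = 3 each). Its log2 change was -0.82 ± 0.23, its adjusted p was 0.0799, and all 3 embryos had a lower value after adaptation, without overlap, as in 19.6% of units. The untreated null primary sample S13, which was not in this fit, was at 413, below the adapted S12 at 433. The change was -0.53 after quantile normalization. The Phgdh units differed in null cells. The higher unit overlapped between the groups, with a log2 change of -0.42 and an adjusted p of 0.410 by limma. In the lower unit the adapted values all lay below the primary values, with a log2 change of -1.41 and an adjusted p of 0.0538. S13, not in this fit, was at 3.19 FPKM in the lower unit.

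The other direction prevailed among the ATF4-linked genes of null cells, without a call. Atf4 was at 316 ± 94.998 FPKM in null adapted against 206 ± 29.8 in null primary cells, with a log2 change of 0.58 ± 0.26 and an adjusted p of 0.190. Atf4 and Psat1 were higher after adaptation in 3 of 3 embryos. Psat1 had a log2 change of 0.36 with an adjusted p of 0.248, and its adapted values lay above all primary values, as they did for 17.5% of units. Ddit3, Chac1, Herpud1 and Asns had log2 changes of 0.58, 0.68, 0.53 and 0.46, with adjusted p from 0.363 to 0.441. These rested largely on S11: without it Atf4 stood at 0.35, Ddit3 at 0.24, Asns at 0.19, Chac1 at 0.21, Herpud1 at 0.11 and Trib3 at -0.54 in place of 0.12.

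The median log2 change of the 10 genes was -0.35 on WT adaptation and 0.41 on null adaptation, where the medians over all units tested were -0.049 and -0.038. Whether the genotypes differ in this is the interaction, tested over 12 samples. None of the 10 genes was called by limma, none had an unadjusted p under 0.05, where 4.63% of 20046 units did, and 9 of 10 estimates were above 0, where 53.8% of units were. Asns had the largest, at 1.07 with a 95% interval from -0.26 to 2.40 and an adjusted p of 0.996. Hspa5 had -0.10 with an interval from -0.75 to 0.55. Without S07 the Asns estimate stood at 0.60, that of Psat1 at 0.11 in place of 0.51 and that of Ddit3 at 0.0021 in place of 0.51. Without S11 that of Trib3 stood at 0.18 and that of Chac1 at 0.36, both in place of 0.84, and that of Herpud1 at 0.13 in place of 0.54.

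**Figure D3:**
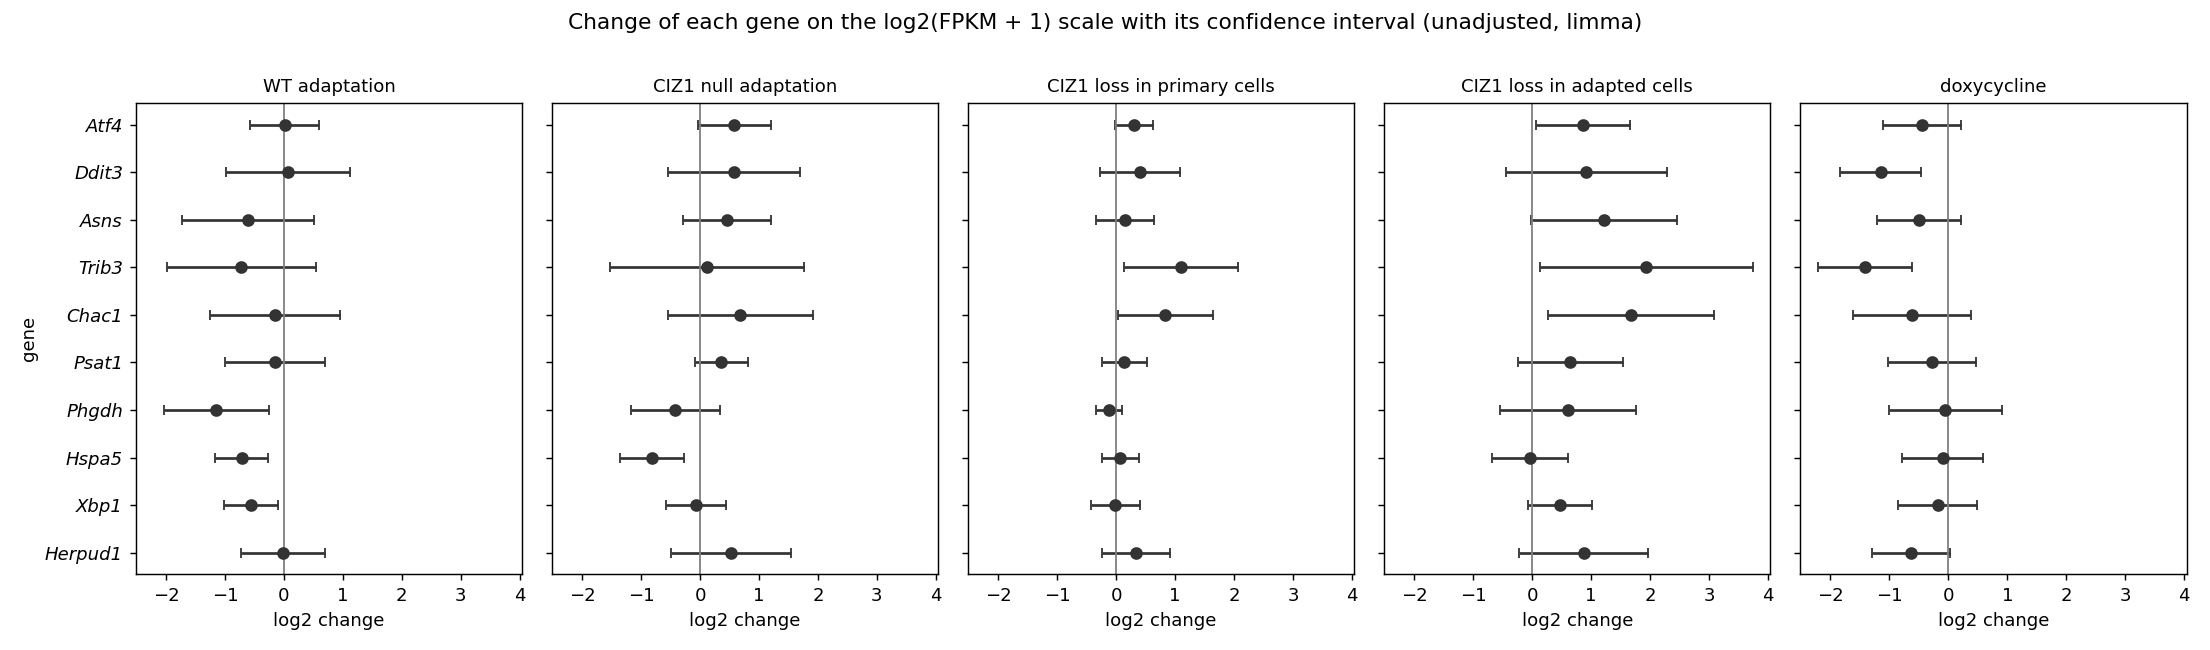
log2 change of each gene (points, horizontal axis, on the log2(FPKM + 1) scale) with its unadjusted 95% interval from limma (bars), in 5 comparisons (panels), the first named state minus the reference; genes are on the vertical axis. Hspa5 lies below 0 in both adaptation panels, Trib3 and Chac1 lie above 0 in both panels of CIZ1 loss, and all 10 points lie below 0 with doxycycline.

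Loss of CIZ1 was compared in primary cells first. None of the 10 genes was called by limma, where 0.00511% of 19566 units, that is 1 unit, were called. At an unadjusted p under 0.05 there were 2 genes, both higher in null cells, where 3.53% of units reached it in that direction. Trib3 was at 25.5 ± 12.1 FPKM in null against 11.5 ± 6.06 in WT cells, a ratio of 2.23 (± SD, n = 3 each). Its log2 change was 1.10 ± 0.41, with an adjusted p of 0.776. Chac1 was at 20.1 ± 7.27 against 10.8 ± 4.39, a log2 change of 0.84 ± 0.34 with an adjusted p of 0.790.

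Atf4 had a smaller log2 change of 0.30 ± 0.13 in primary cells, with an adjusted p of 0.807 and null values all above WT values, as in 6.13% of units. The lower Atf4 unit overlapped between the genotypes. Phgdh, at -0.12, had null values all below WT values, as in 5.72% of units. Ddit3 was at 0.40, Herpud1 at 0.33, Asns at 0.15 and Psat1 at 0.14, while Hspa5 at 0.069 and Xbp1 at -0.011 were close to 0. Without the transgenic S06, Trib3 stood at 0.75, Atf4 at 0.19, Herpud1 at 0.14, Ddit3 at 0.09 and Asns at -0.0091.

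Among adapted cells Chac1, Trib3 and Atf4 had the smallest p between genotypes, without a call. Whether the difference between genotypes was larger here than in primary cells is the interaction above. None of the 10 genes was called by limma, where 0.00501% of 19976 units (1 unit) were, and 3 had an unadjusted p under 0.05, all higher in null cells, where 1.83% of units reached it in that direction. Chac1 was at 36.2 ± 23.3 FPKM in null against 10.2 ± 5.12 in WT cells, and Trib3 was at 34.1 ± 29.0 against 6.93 ± 4.16 (± SD, n = 3 each). Their log2 changes were 1.67 ± 0.59 and 1.94 ± 0.75. Atf4 was at 316 ± 94.998 against 173 ± 49.3, a log2 change of 0.87 ± 0.33. The adjusted p of each was 0.998.

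Estimates were above 0 for 9 of the 10 genes in adapted cells, where 53.9% of units were, with a median of 0.87 beside 0.034 over all units. Values of Atf4, Chac1, Psat1 and Xbp1 did not overlap, null above WT, as in 4.55% of units. Asns stood at 1.22, Ddit3 at 0.92, Herpud1 at 0.87, Psat1 at 0.65, Phgdh at 0.61 and Xbp1 at 0.47. Hspa5, the exception, was at 328 ± 91.3 against 330.5 ± 50.9 FPKM, a log2 change of -0.034 with a 95% interval from -0.68 to 0.61. Several of these turned on single samples. Without S07 Asns stood at 0.75, Atf4 at 0.61, Ddit3 at 0.41, Psat1 at 0.25 and Phgdh at 0.17, and without S11 Trib3 stood at 1.28, Chac1 at 1.20 and Herpud1 at 0.46. This comparison uses the same adapted samples as the adaptation comparisons. The adapted lines also came from the embryos of the primary samples, so the genotype differences in primary and adapted cells are not independent. S06 and S11, from the same embryo, had the highest null primary and null adapted values of Atf4, Ddit3, Asns, Trib3 and Herpud1.

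The doxycycline comparison set the treated S14 and S15 against the untreated S06 and S13, all CIZ1 null primary cells with the transgene. The study lists 2 embryos for these 4 samples, so treated and untreated samples share embryos, but the labels do not say which treated sample belongs to which untreated one, and the fit was not paired. None of the 10 genes was called by limma, where 0.0101% of 19768 units (2 units) were. Ddit3 and Trib3 had an unadjusted p under 0.05, both lower with treatment, as 1.03% of units did. Ddit3 was at 47.9 ± 0.80 FPKM in treated against 108 ± 17.2 in untreated samples, and Trib3 was at 11.4 ± 0.88 against 32.7 ± 9.29 (± SD, n = 2 each). Their log2 changes were -1.15 ± 0.28 and -1.42 ± 0.32, each with an adjusted p of 1.0.

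All 10 estimates were below 0 with doxycycline, where 48.9% of units were above it. The lower Phgdh unit, however, stood at 0.43. Leaving out single samples, Hspa5 ran from -0.32 to 0.13 and Phgdh from -0.44 to 0.34. In 6 genes (Atf4, Ddit3, Asns, Trib3, Xbp1 and Herpud1) both treated values lay below both untreated values, as in 10.8% of units. In the lower units of Asns and Xbp1 the values overlapped. Herpud1 was at 31.1 against 48.7 FPKM and Atf4 at 155 against 214. In the null primary samples without the transgene Ddit3 was at 44.0 and 56.4, and both treated values lay between these while both untreated values lay above them. Trib3 was at 16.2 and 21.2 there, with both treated values below and both untreated values above. The summed fibroblast markers moved with treatment, at 6341 and 7937 FPKM in the treated and 9635 and 10164 in the untreated samples, and their part in these differences was not tested. Without S06 the Atf4 difference stood at -0.28 in place of -0.45, and without S15 that of Chac1 stood at -0.21 in place of -0.61. No treated cells without the transgene were sampled, so doxycycline and GFP-CIZ1 cannot be told apart.

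Other genes of the same pathways were followed through 8 lists with 97 genes, of which 96 had a unit and Slc7a5 had none. On WT adaptation 1 gene rose and 10 fell of 94 tested. Over all 19919 units 9.55% were called, 572 higher and 1330 lower. Calls thus leaned towards lower values over all units too, and 47.6% of calls were higher after quantile normalization. Eif2ak2, which encodes the double-stranded RNA sensing eIF2 kinase PKR, rose by 1.41 on the log2 scale, to 34.8 ± 6.05 FPKM from 12.3 ± 0.92, with an adjusted p of 0.0146. The Eif2ak2 unit also holds Gm6548. In the bZIP factors and feedback genes of the integrated stress response, 4 of 11 tested genes fell and none rose. They were Atf5, an ATF4-related factor (log2 change -1.97), the secreted factor Gdf15 (-1.75), the translation inhibitor Eif4ebp1 (-1.23) and the mTORC1 regulator Sesn2 (-0.95).

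Among the 18 ER chaperones and folding enzymes, 3 fell on WT adaptation: Sdf2l1 (-1.31), the disulphide isomerase gene P4hb (-0.84) and Manf (-0.78), whose unit also holds Rbm15b. Also lower were Creb3 (-1.39), an ER membrane transcription factor, Eif2b3 (-1.35), a subunit of the factor that recharges eIF2, and Yars (-0.93), the tyrosyl-tRNA synthetase. Adjusted p for these 10 genes ran from 0.0122 to 0.0473. With the embryo as a block, 3 of the 11 genes were called (Atf5, Eif4ebp1 and Gdf15), and 0 were called without S01, without S02 or without S03. With all 15 samples in one fit Eif2ak2, Gdf15 and Manf were not called, at adjusted p of 0.114, 0.0627 and 0.136 by limma. Atf5 was at 170.3, 143 and 168 FPKM in WT primary cells and at 52.8, 39.2 and 30.7 in WT adapted cells, without overlap.

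On null adaptation 1 of 95 tested pathway genes rose and 1 fell, where 4.86% of units were called. Slc7a3, a transporter of cationic amino acids, rose by 1.99 on the log2 scale with an adjusted p of 0.0228. It was at 1.77, 2.84 and 2.51 FPKM in null primary cells and at 9.28, 16.5 and 11.9 in null adapted cells. Sdf2l1, a partner of BiP, fell by 2.06 with an adjusted p of 0.0210, from 20.1, 22.2 and 31.4 to 6.49, 4.71 and 4.15 FPKM. With the embryo as a block neither was called, at adjusted p of 0.0721 and 0.0708. Neither was called without S04, S05, S06 or S12.

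Slc7a3 also had the smallest unadjusted p of the pathway genes between genotypes in adapted cells. WT adapted cells had 1.75, 0.62 and 0.30 FPKM, below every null adapted value. The log2 change was 2.88 ± 0.36 with an adjusted p of 0.424, and the interaction was 2.86 ± 0.46 with an adjusted p of 0.340. Next came Atf5, with 1.43 ± 0.30 and an adjusted p of 0.998, and Cebpg, which encodes a bZIP partner of ATF4, with 0.96 ± 0.30. The Cebpg unit also holds RP23-338G5.4. No pathway gene was called by limma in this comparison, and 7 of 94 had an unadjusted p under 0.05, all higher in null cells, where 1.83% of units did. Slc7a3 was called here with all 15 samples in one fit (adjusted p 0.0059 by limma), and in the interaction without S10 (0.0185).

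By list, the medians between genotypes in adapted cells were 0.93 for the bZIP factors and feedback genes, 0.75 for amino acid transporters, 0.44 for amino acid and one-carbon enzymes and 0.38 for aminoacyl-tRNA synthetases. All 11, 8, 8 and 12 tested genes of these lists had an estimate above 0, where 53.9% of all units did. So did all 8 ER stress sensors and proteases, with a median of 0.22. These genes were read in the same samples, so their estimates are not independent. The list medians were not recomputed without S07 or S11. The medians were -0.12 for ER chaperones and folding enzymes and -0.050 for ER-associated degradation. For the eIF2 kinases and eIF2 cycle it was 0.014, with 7 of 12 estimates above 0, and the median over all units was 0.034. On null adaptation the median of the ER chaperones was -0.51 and on WT adaptation -0.37.

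**Figure D4:**
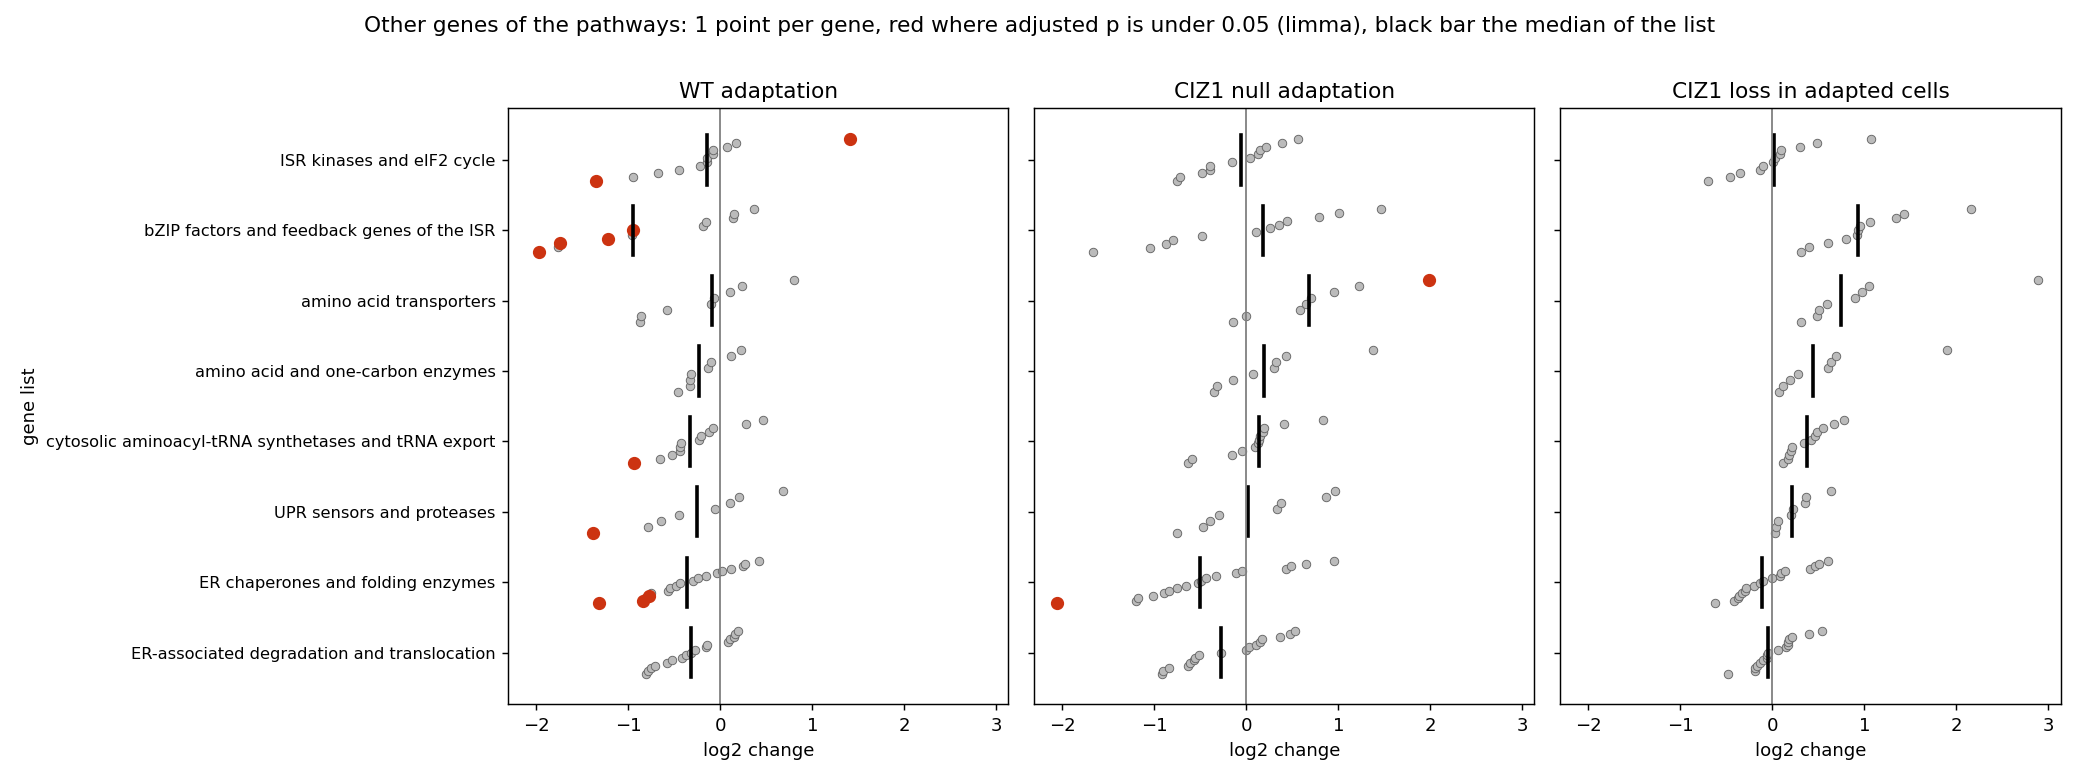
log2 change (horizontal axis, on the log2(FPKM + 1) scale) of each tested gene in 8 lists (vertical axis) on WT adaptation, on null adaptation, and with CIZ1 loss in adapted cells (panels); red points passed an adjusted p under 0.05 and black bars are medians. In the third panel every point of the transporter, synthetase and amino acid enzyme lists lies above 0 with no red point, while the chaperone median is -0.12. Of all units, 53.9% were above 0 in that comparison.

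In primary cells 0 of 94 pathway genes were called between genotypes by limma and 6 had an unadjusted p under 0.05, a share near the 6.26% of all units that did. The 3 with the smallest were Cebpb, a bZIP factor (0.58 ± 0.18), Sdf2l1 (0.61 ± 0.22) and the secreted hormone gene Fgf21 (1.29 ± 0.50), with adjusted p from 0.705 to 0.776. Fgf21 was low, at 2.70 ± 1.40 against 0.65 ± 1.13 FPKM. With doxycycline 0 of 94 were called by limma and 3 had an unadjusted p under 0.05, all lower in treated samples, where 1.03% of units did. They were the stress-induced chromatin protein gene Nupr1 (-0.84 ± 0.28), Cth, an enzyme of cysteine synthesis (-0.84 ± 0.31), and Gpt2, a mitochondrial aminotransferase (-0.73 ± 0.28), with adjusted p of 1.0. In the interaction 0 of 95 were called by limma and 5 had an unadjusted p under 0.05, where 4.63% of units did, with Atf5 at 1.10 ± 0.39 and Eif2b3 at 0.86 ± 0.34 after Slc7a3.

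The likeness of the genes across samples was described by Pearson r of log2(FPKM + 1) over 15 samples, which share groups and depth. Atf4 ran with Chac1 at r = 0.90, Ddit3 at 0.83, Asns at 0.81, Herpud1 at 0.79, and Psat1 and Trib3 at 0.78. Trib3 and Chac1 stood at 0.87, and Asns and Psat1 at 0.88. Hspa5 stood apart, with -0.25 to Atf4, -0.21 to Herpud1, 0.60 to Xbp1 and 0.59 to Phgdh. Herpud1, whose promoter window holds both kinds of element, was nearer to Chac1 and Trib3 (0.79 and 0.78) than to Hspa5 or Xbp1 (0.32). With the ATF4 targets Asns, Psat1 and Phgdh, however, Herpud1 had a lower r of 0.50, 0.37 and 0.20.

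**Figure D5:**
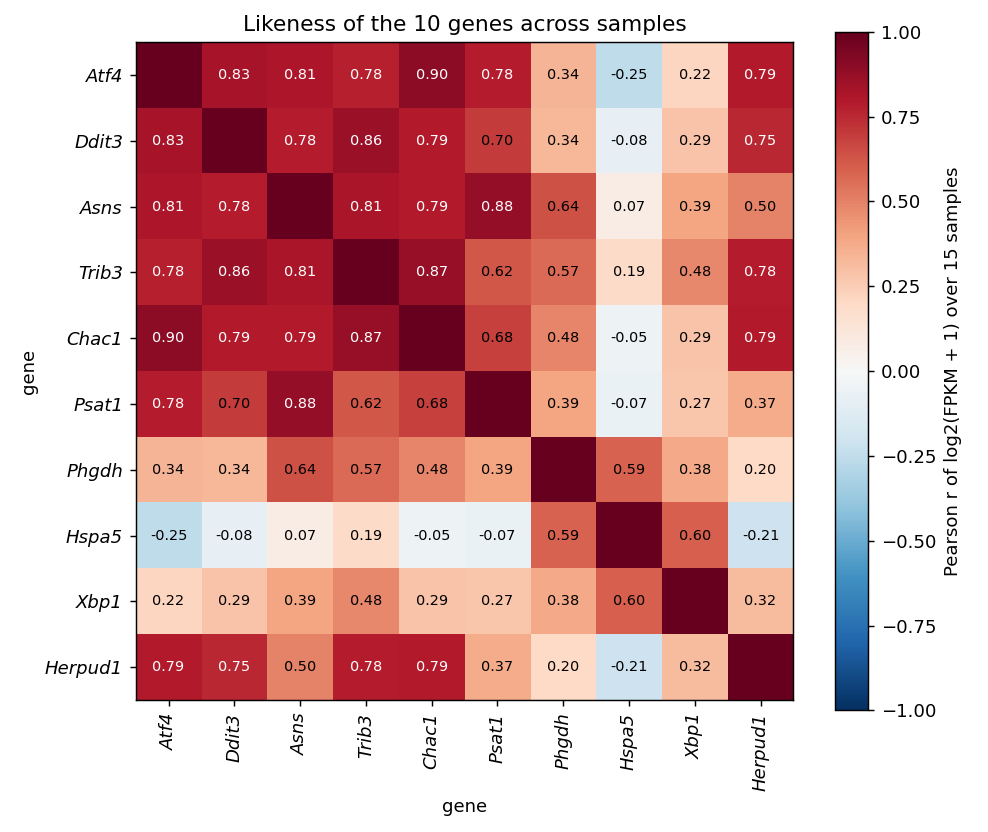
Pearson r (numbers and colour, red positive and blue negative) between the 10 genes (both axes), over 15 samples on the log2(FPKM + 1) scale. Atf4, Ddit3, Asns, Trib3 and Chac1 have r from 0.78 to 0.90 with each other, whereas Hspa5 has r from -0.25 to 0.60.

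Of 10810 units that carried 1 symbol and averaged 5 FPKM or more, those most like Asns were Lonp1, a mitochondrial protease (r = 0.91), the mitochondrial chaperone gene Hspa9 (0.89), the aminoacyl-tRNA synthetase gene Eprs (0.89), Ndufa4l2 (0.89) and Cth (0.89). Those most like Hspa5 were Rabepk (0.94), which shares its coordinates and possibly its reads, both units of the ER chaperone Hyou1 (0.93 and 0.92), Insig1, an ER protein of sterol sensing (0.91), and 1810049J17Rik (0.91).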

How the data were processed

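RNA was poly(A)-selected from 15 fibroblast samples. FPKM values were made and deposited by the authors, who trimmed reads with Cutadapt 1.8.3, aligned them to GRCm38 with HISAT2 2.0.5, and assembled and normalised units with Cufflinks and Cuffnorm 2.2.1; replicates were not pooled. A second file held the authors' own fold changes and p-values and was not used. Counts of fragments are unknown, so no counting interval is given, and relative depth (0.48 to 1.63) only ranks the precision of samples. Start coordinates, which count from 0 in the file, were raised by 1.

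Groups came from sample titles. The genes, the lists and the rule for named genes (all 10 genes; pathway genes called in a comparison or, with fewer than 3 called, the 3 with the smallest p; the 5 units most like Asns and Hspa5) were chosen with earlier results of these data known. limma 3.58.1 (R 4.3.3, eBayes with trend, two-sided) was fitted to log2(FPKM + 1) of the samples compared, for units with a mean of at least 1 FPKM, with Benjamini-Hochberg adjustment over all of them. The fit was tested on simulated data.

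Alternatives were a pseudocount of 0.1, no filter, quantile normalization, 1 fit of all 15 samples, the embryo as a block, other choices of null primary samples, leaving out each sample, and, added after seeing the data, the sum of both units of a gene. Embryos were matched through the study's per-line values. Deviations of the same embryo in primary and adapted cells correlated at -0.01 to 0.21 in WT and -0.02 to 0.11 in null cells. Those of different embryos correlated at -0.18 to 0.08 in WT and -0.17 to 0.11 in null cells. Promoters are from RefSeq. Figures were drawn with Matplotlib 3.10.9.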

Additional observations from a re-analysis of the deposited data

How the results depend on the processing

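Each change of the 10 genes was recomputed under the alternatives that apply to its comparison (the block for adaptation, other null primary samples where that group enters), 780 values in all, of which 738 kept their direction and side of the threshold, 39 changed sign and 3 became calls. Hspa5 was called with all 15 samples in one fit, on WT adaptation (adjusted p 0.0425) and on null adaptation (0.0268), which makes 1 gene called in place of 0 in each; Phgdh was called on WT adaptation without S07, so that leaving out single samples gave 0 to 1. With the embryo as a block (pairing primary and adapted cells of an embryo) Hspa5 had adjusted p of 0.120 and 0.118 and 0 of the 10 genes were called.

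Changes of sign were of estimates that were not called, and their cause was not tested. Under quantile normalization, Psat1 stood at 0.13 and Herpud1 at 0.17 on WT adaptation, Xbp1 at 0.11 on null adaptation and at 0.023 with CIZ1 loss in primary cells, and Hspa5 at 0.00169 with doxycycline. Without the transgenic S06, Xbp1 stood at 0.015 on null adaptation and Asns at -0.0091 with CIZ1 loss in primary cells. With 4 untreated null primary samples, Hspa5 stood at -0.045 with CIZ1 loss in primary cells and at 0.011 in the interaction.

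Leaving out single samples gave these ranges. On WT adaptation Atf4 ran from -0.15 to 0.27, Ddit3 from -0.24 to 0.58, Chac1 from -0.39 to 0.32, Psat1 from -0.44 to 0.25 and Herpud1 from -0.27 to 0.22. On null adaptation Trib3 ran from -0.54 to 0.79 and Xbp1 from -0.21 to 0.015. With CIZ1 loss in primary cells Asns ran from -0.0091 to 0.34, Hspa5 from -0.043 to 0.17 and Xbp1 from -0.15 to 0.12. Hspa5 ran from -0.25 to 0.088 with CIZ1 loss in adapted cells, from -0.32 to 0.020 in the interaction and from -0.32 to 0.13 with doxycycline, where Phgdh ran from -0.44 to 0.34.

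The pathway genes called numbered 11 on WT adaptation, against 5 with no filter, 7 after quantile normalization, 3 with the block and 0 to 13 with single samples left out. On null adaptation they numbered 2, against 14 with all samples in one fit, 0 with the block, 0 without S06 and 0 to 18 with single samples left out. With CIZ1 loss in adapted cells they numbered 0, against 1 (Slc7a3) with all samples in one fit, and in the interaction 0, against 1 (Slc7a3) without S10. Quantile normalization moved the median of all units on WT adaptation from -0.049 to 0.058 and the share of calls that were higher from 30.1% to 47.6%; on null adaptation the share moved from 28.7% to 41.2%. The groups hold 2 or 3 samples of 1 library each, and the fragments behind low values such as Trib3 in S07 are unknown.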

Other observations

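The lower Phgdh unit was at 18.5 FPKM in S14 and 5.03 in S15, both treated with doxycycline, and at 14.3 in S06 and 3.19 in S13, both untreated. The higher unit had the same order, with 232 and 134 in the treated and 229 and 146 in the untreated samples. Within each condition the samples thus differed more in Phgdh than the conditions did.

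The lower unit of Asns was at 19.9, 14.2 and 14.5 FPKM in WT primary cells and at 4.33, 5.51 and 12.5 in WT adapted cells, without overlap, with a log2 change of -1.13 and an adjusted p of 0.0988 by limma, and its higher unit overlapped between the groups.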
